A study of Sus scrofa with 8 samples.

Results

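The myosin heavy chain and light chain genes of striated muscle were examined by ATAC-seq in satellite cells of the pig, the stem cells from which muscle fibres regenerate. The assay lets a transposase cut and tag DNA that is not packed away, so that a peak of reads marks accessible chromatin. Peaks of all 8 libraries were merged into 178498 regions wherever they shared at least 1 bp. Each region was linked to the protein-coding gene with the nearest annotated end within 50 kb (Sscrofa11.1, RefSeq), and the members are the regions linked to MYH1, MYH2, MYH3, MYH4, MYH7, MYH8, MYL1, MYL2, MYL3 or MYL4. There were 45 such regions among 114950 linked to any gene. MYL2 had 12, MYL1 had 9, MYH7 and MYL4 had 7 each, MYH2 had 6, MYH4 and MYL3 had 2 each, and MYH1 had 0. MYH3 and MYH8, the embryonic and perinatal heavy chains, have no entry under these symbols in the RefSeq table, so 8 of the 10 genes could be searched and 7 had regions. Genes without a descriptive symbol lie next to MYH4 (LOC110255887) and next to MYH2 (LOC396711). Whether they correspond to MYH3 or MYH8 was not tested, and regions linked to them are not members.

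The 8 libraries form 4 groups of 2: CBP at 60 h, WT at 60 h, CBP at 0 h and WT at 0 h. The 60 h cells are labelled as differentiating and the 0 h cells as proliferating. The labels' protocol names SGC-CBP30, an inhibitor of the bromodomains of CBP and its paralogue EP300, both histone acetyltransferases, used at 5 uM/ml for 48 h during proliferation and for 60 h during differentiation. Since no label ties this treatment to the CBP libraries, the groups keep their label names, CBP and WT. All 8 libraries carry the same cell type label, muscle satellite cell, and the same cell line label, C3H, although the organism is given as pig. The labels do not state whether the 2 libraries of a group derive from different animals or cultures, and p-values therefore refer to library-to-library spread that may be technical.

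Myosin is the motor of the thick filament: heavy chains carry the ATPase head and the coiled tail, and each head binds an essential and a regulatory light chain. MYH7 is the slow, or beta cardiac, heavy chain, and MYH2, MYH1 and MYH4 encode the fast IIa, IIx and IIb chains from a tandem cluster. MYL1 is the fast essential light chain, MYL3 the slow and ventricular essential light chain, MYL4 the atrial and embryonic essential light chain, and MYL2 the slow and ventricular regulatory light chain. Satellite cells start to express sarcomeric myosins when they leave the cell cycle and fuse into myotubes.

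The deposited lists held 82696 to 88871 peaks at 60 h and 121757 to 135528 at 0 h. Relative depth, recovered from the peak values and given in units of the shallowest library, was 1 to 1.21 at 60 h and 1.43 to 2.08 at 0 h. The part of depth in the shorter 60 h lists was not tested. Counts are given as deposited and also with equal peak numbers, the strongest 82696 peaks of every library. A region called in every library of the first-named group and in no library of the other is termed opened, and the reverse is termed closed. With 2 libraries a side an exact permutation test cannot go below p = 0.333, so these counts carry no test. Of 12 satellite cell and myoblast markers, 9 or 10 had a peak within 1 kb of a gene end in each library, with ITGA7 and CALCR at none. The numbers were 5 or 6 of 7 for fibroblast, 2 to 4 of 5 for endothelial, 3 or 4 of 5 for immune, 2 of 4 for adipocyte and 1 to 3 of 5 for cardiomyocyte markers, and between 63.3% and 69.4% of all genes had such a peak. Endothelial markers had 2 in each WT 60 h library and 3 or 4 elsewhere, and cardiomyocyte markers had 1 or 2 in each 60 h library and 3 in each 0 h library. Their part in the results below was not tested.

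The 3 fast heavy chain genes lie side by side on chromosome 12, MYH4 at 55190545 to 55216294, MYH1 at 55225581 to 55251495 and MYH2 at 55252974 to 55278820, with 1478 bp between MYH1 and MYH2. No region of any library lay between 55217390 and 55284465, a stretch of 67076 bp that holds both MYH1 and MYH2 whole. Among all 178479 gaps between neighbouring regions the median was 5992 bp, and 2.34% were at least this long. Whether reads could be placed uniquely in this stretch was not tested, so the gap cannot be read as closed chromatin. The region nearest to MYH1, 8192 bp away, crosses the upper end of MYH4 and is assigned to that gene. The 6 regions linked to MYH2 all lie 5646 to 27024 bp above its upper end, outside the gene body. As strand is not given in the gene table, gene ends are called lower and upper by coordinate, and which end holds the start of transcription is not stated here.

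**Figure D1:**
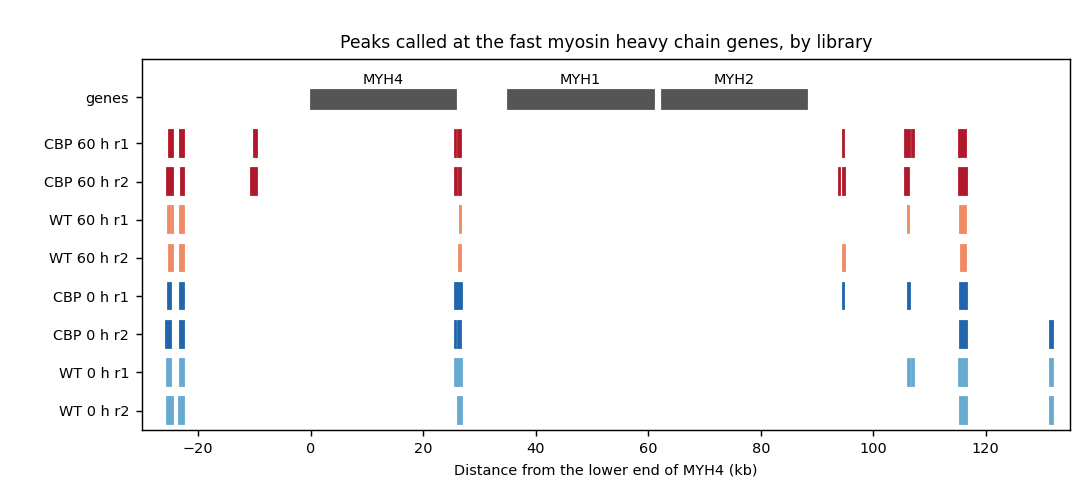
Peaks called in each library (rows, colours by group) at the fast myosin heavy chain genes, by distance in kb from the lower end of MYH4; grey boxes are the annotated genes. No peak of any library lies over MYH1 or MYH2, while the peak across the upper end of MYH4 and the one 27024 bp above MYH2 appear in all 8 libraries.

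The slow heavy chain gene MYH7 spans 75650841 to 75672908 on chromosome 7 and holds the microRNA gene MIR208B at 75667786 to 75667865. Its 7 regions comprise 5 below the lower end and 2 inside the gene. MYL1 spans 113038083 to 113051315 on chromosome 15 and overlaps the annotated long noncoding RNA LOC102160916. One of its 9 regions crosses the upper end and another lies 359 bp below the lower end. MYL4, at 16774655 to 16792213 on chromosome 12 between ITGB3 and CDC27, has a region 213 bp above its upper end. MYL2, at 32205953 to 32213848 on chromosome 14, lies inside the annotation of CCDC63 (32140323 to 32300930), so that all of its regions between these coordinates also lie inside that gene. MYL3, at 29730271 to 29735616 on chromosome 13, has 1 region 9291 bp below and 1 region 3386 bp above.

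The members resembled linked regions in general in width and position. Their median width was 676 bp, against 673 bp for all linked regions, and 7 of 45 (15.6%) lay within 1 kb of a gene end, against 16.6%. Calls in a single library were found for 3 of 45 (6.67%), against 21.4% of all linked regions, and 16 (35.6%) were called in all 8 libraries, against 31.8%. The peak caller's local background, divided by the most frequent background value of the library, had a median of 1.69 over the members and 1.58 over all linked regions. By gene this median was 3.06 for MYL3, 2.41 for MYH7, 1.94 for MYL2, 1.72 for MYL4, 1.28 for MYL1, 1.02 for MYH4 and 1.006 for MYH2. The fast heavy chain genes thus had the lowest medians, and 78.9% of all linked regions had a background at least as high as the MYH2 median. Single regions of MYH2 reached 2.15 times the floor, and the lowest regions of MYL1, MYL2 and MYH7 were at 1.001, 1.02 and 1.001 times.

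**Figure D2:**
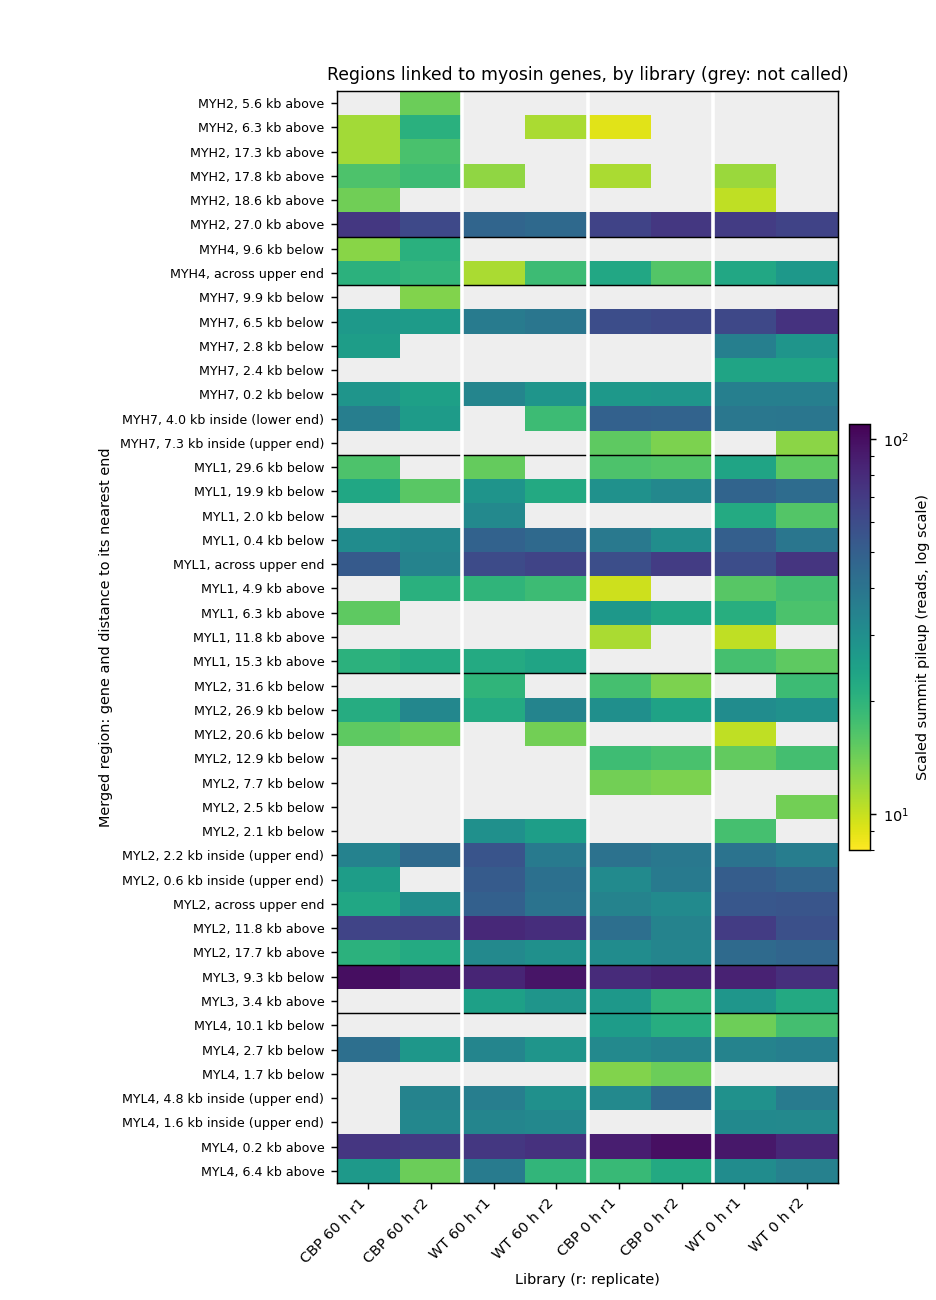
Scaled summit pileup (reads, log colour scale) of the 45 regions (rows, named by gene and distance to its nearest end in kb) in the 8 libraries (columns); grey cells are not called. The MYH2 and MYH4 regions are mostly grey outside the CBP 60 h columns, while 16 regions are coloured in all columns.

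Per library, 28 and 28 members were called in CBP 60 h, 27 and 26 in WT 60 h, 32 and 28 in CBP 0 h, and 35 and 33 in WT 0 h. These were 57.8% to 62.2% of the members at 60 h and 62.2% to 77.8% at 0 h, against 46.2% to 48.4% and 65.6% to 74.7% of all linked regions. With equal peak numbers these counts were 24 and 27 in CBP 60 h, 26 and 26 in WT 60 h, 22 and 21 in CBP 0 h, and 22 and 23 in WT 0 h. As deposited the 60 h libraries had as many calls as the lowest 0 h library or fewer, whereas with equal peak numbers every 60 h library had more than every 0 h library. Over all linked regions the shares called at equal peak numbers were 45.3% to 46.6% at 60 h and 46.98% to 48.1% at 0 h.

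The comparison of times asked how accessibility near these genes differed between differentiating and proliferating cells. In WT, 0 of 45 members opened and 5 closed, against 0.575% and 14.3% of all linked regions. Without WT 60 h replicate 1 or WT 0 h replicate 1 there was 1 opened region, against 2.25% and 0.884% of all linked regions. In CBP, 4 members opened (8.89%) and 7 closed (15.6%), against 1.36% and 14.5% of all linked regions. Without CBP 60 h replicate 1, 7 opened, against 3.56% of all linked regions. The closed counts lie near the background share at both labels. With equal peak numbers 4 opened and 1 closed in WT, against 2.62% and 3.89%, and 3 opened and 2 closed in CBP, against 3.64% and 5.57%. Over all 8 libraries 0 members opened and 2 closed, against 0.109% and 5.47%, and at equal peak numbers 0 opened and 0 closed, against 0.687% and 1.27%. These calls do not tell fewer cells with an open site from less opening per cell.

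The 4 regions that opened in CBP include 1 each at MYH2 and MYH4, the fast IIa and IIb chains, and both were called in the CBP 60 h libraries alone. The MYH2 region (chromosome 12, 55296124 to 55296497, 17304 bp above the gene) had summit pileups of 9 and 13 reads in CBP 60 h and was not called in the other 6 libraries. The MYH4 region (55179931 to 55180963, 9582 bp below) had 10 and 16 reads in CBP 60 h and was likewise uncalled elsewhere. Both are weak: of the peaks in replicate 1 neither was among its strongest 82696, so neither opened at equal peak numbers. A neighbouring MYH2 region (55296650 to 55297072) opened in CBP only at equal peak numbers, with 13 and 14 reads in CBP 60 h, 10 reads in WT 60 h replicate 1, 16 in CBP 0 h replicate 1 and 15 in WT 0 h replicate 1. The MYH2 locus as a whole had 5 and 5 called regions in CBP 60 h, 2 and 2 in WT 60 h, 3 and 1 in CBP 0 h, and 3 and 1 in WT 0 h. The CBP 60 h libraries thus had more than any other library, and with equal peak numbers they had 3 and 5, against 2 and 2 in WT 60 h and 1 in each of the 4 libraries at 0 h.

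The other regions that opened in CBP belong to light chains. At MYL1 the region 15253 bp above the gene (chromosome 15, 113066568 to 113067268) had 16 and 17 reads in CBP 60 h, 18 and 17 in WT 60 h, none called in CBP 0 h, and 22 and 22 in WT 0 h. At MYL2 the region 20614 bp below (chromosome 14, 32184890 to 32185339) had 12 and 11 reads in CBP 60 h, 10 in WT 60 h replicate 2 and 13 in WT 0 h replicate 1. Both opened in CBP at equal peak numbers as well, and as deposited the MYL1 region was uncalled in the 2 CBP 0 h libraries only. In WT the 4 regions that opened at equal peak numbers were at MYL1 (113056191 to 113056670), MYL2 (32203505 to 32203882 and 32210978 to 32211650) and MYL4 (16790032 to 16790599), all within 4876 bp of a gene end.

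Regions at MYL2 and MYL4 were called in all 4 libraries at 0 h and in none at 60 h. The MYL4 region, 10074 bp below the atrial and embryonic light chain gene (chromosome 12, 16763734 to 16764581), had 37 and 24 reads in CBP 0 h and 18 and 25 in WT 0 h. The MYL2 region, 12895 bp below the gene (chromosome 14, 32192599 to 32193058), had 26 and 19 reads in CBP 0 h and 19 and 25 in WT 0 h. At equal peak numbers both also closed in CBP, while in WT 0 h replicate 1 neither was among the strongest peaks. The other regions that closed in WT were 2 at MYH7, 2809 and 2352 bp below the gene, and 1 at MYL1, 6327 bp above, which also closed in WT at equal peak numbers. In CBP the others were at MYH7 inside the gene, MYL2 (31568 and 7665 bp below), MYL3 (3386 bp above) and MYL4 (1728 bp below).

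**Figure D3:**
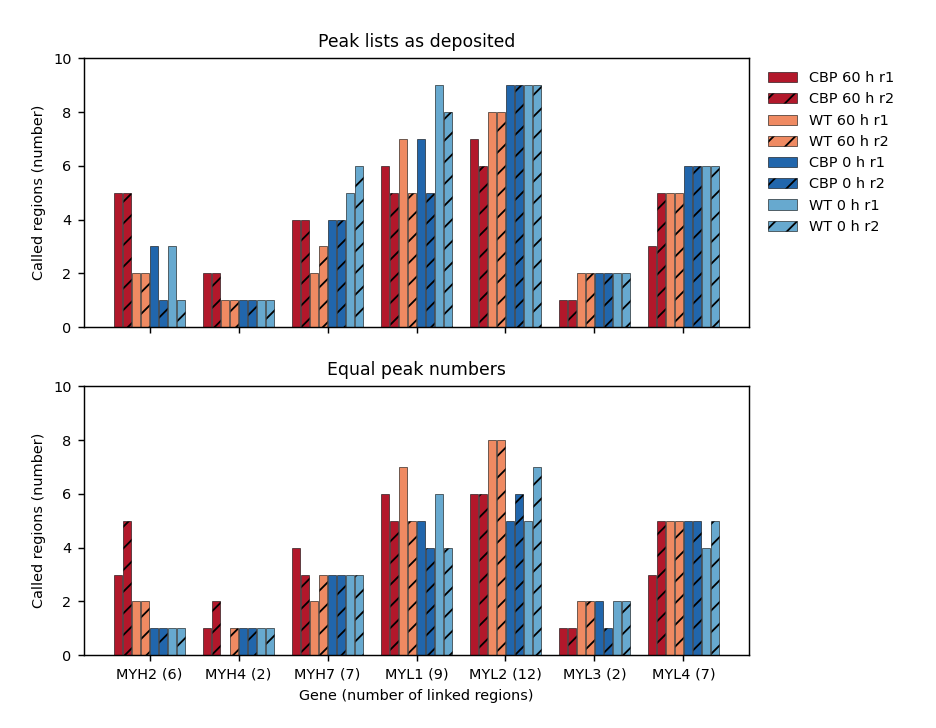
Number of called regions per gene and library (bars, colours by group, hatching for replicate 2; number of linked regions in parentheses), as deposited (top) and with equal peak numbers (bottom). MYH2 has most calls in the CBP 60 h libraries in both panels, whereas the lower 60 h counts of MYL4 and MYL2 in the top panel are not seen at the bottom.

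Tested per gene, no difference between times in the number of called regions passed the threshold. The smallest possible exact permutation p is 0.0286, so after adjustment a pass needs most of the 17522 genes at that value. The 0 calls therefore cannot be read as an absence of change. An exact permutation test (two-sided, 8 libraries), with Benjamini-Hochberg adjustment over 17522 genes, called 0 genes (0.0%), members included, with a smallest adjusted p = 0.106. At an unadjusted p under 0.05, 4720 genes were lower and 6 higher at 60 h, together 27.0% of genes. Among the members MYL4 had 4.5 ± 1.0 called regions at 60 h and 6.0 ± 0.0 at 0 h (SD, n = 4 each), and MYL2 had 7.25 ± 0.957 and 9.0 ± 0.0 (exact permutation p = 0.0286 for each, the smallest possible, adjusted p = 0.106). MYH2 ran the other way, with 3.5 ± 1.73 at 60 h and 2.0 ± 1.155 at 0 h (exact permutation p = 0.286, adjusted p = 0.497). With equal peak numbers MYH2 had 3.0 ± 1.41 and 1.0 ± 0.0 (exact permutation p = 0.0286, adjusted p = 0.617), and MYL4 had 4.5 ± 1.0 and 4.75 ± 0.5. In that setting 268 genes were higher and 543 lower at 60 h at an unadjusted p under 0.05, together 4.63% of genes.

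CBP was set against WT at each time, the comparison the series title names. At 0 h 2 members opened and 5 closed in CBP, against 2.23% and 3.35% of all linked regions. Without WT 0 h replicate 2, 4 opened and 8 closed, against 4.96% and 7.24%. Equal peak numbers left 1 opened and 1 closed, both at MYL2, against 1.85% and 2.35%. With all peaks kept, both of these MYL2 regions were called in all 8 libraries. At 60 h 2 opened and 2 closed, against 3.14% and 3.17%. Without CBP 60 h replicate 1 there were 4 opened, against 7.23% of all linked regions. Without CBP 60 h replicate 2 there were 5 opened and 5 closed, against 7.98% and 5.06%. Without WT 60 h replicate 2 there were 5 opened and 4 closed, against 4.69% and 7.39%. Equal peak numbers gave 0 opened and 2 closed at 60 h, against 2.77% and 3.45%. Over all 8 libraries 0 opened and 0 closed, against 0.142% and 0.231%, and equal peak numbers also gave 0 and 0, against 0.197% and 0.374%. Without CBP 60 h replicate 2, WT 60 h replicate 2 or WT 0 h replicate 2, 1 region closed over all libraries, against 0.306%, 0.513% and 0.29%.

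The regions that opened in CBP at 60 h are the MYH2 and MYH4 regions described above. Those that closed at 60 h, also at equal peak numbers, belong to the slow light chains. The MYL3 region 3386 bp above the gene (chromosome 13, 29739002 to 29741093) was uncalled in CBP 60 h and had 20 and 20 reads in WT 60 h, 39 and 22 in CBP 0 h, and 35 and 32 in WT 0 h. It was called in every library but the CBP 60 h pair. The MYL2 region 2071 bp below the gene (32203505 to 32203882) was uncalled in CBP at both times and had 24 and 18 reads in WT 60 h and 22 in WT 0 h replicate 1. At 0 h the closed regions were at MYH7 (2809 and 2352 bp below), MYL1 (2032 bp below and 15253 bp above) and MYL4 (16790032 to 16790599, inside the gene). The last of these had 25 reads in CBP 60 h replicate 2, 27 and 23 in WT 60 h, and 40 and 46 in WT 0 h, and was uncalled in CBP 60 h replicate 1 and both CBP 0 h libraries. The MYL4 region 1728 bp below and the MYL2 region 7665 bp below were called in the CBP 0 h libraries alone, with 19 and 16 reads at MYL4 and 20 and 15 at MYL2.

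Peak height could be compared where a region was called in every library, which 16 of the 45 members were: 5 at MYL2, 3 each at MYL1 and MYL4, 2 at MYH7, and 1 each at MYH2, MYH4 and MYL3. The remaining 29 carry no value in at least 1 library. The summit pileup, in reads, was divided by a library factor (median of ratios over the 36600 linked regions called in all libraries), and its log2 was tested with limma over those regions with Benjamini-Hochberg adjustment. In WT, 0 of 16 members were higher and 5 lower at 60 h than at 0 h, against 13.2% and 11.8% of all tested regions. In CBP 1 was higher and 5 lower, against 17.1% and 18.6%. When libraries were scaled by their background floor, these were 1 and 5, against 3.58% and 24.8%. At 0 h none was higher and 2 were lower in CBP than in WT, against 0.082% and 1.13% (0 and 1 by floor, against 0.197% and 0.669%). At an unadjusted p under 0.05, 1 member was higher and 6 lower in WT at 60 h, against 19.2% and 18.3% of tested regions. By the same threshold 0 were higher and 5 lower in CBP than in WT at 0 h, against 3.84% and 6.72%. After adjustment, 1 was higher and 4 lower in CBP than in WT at 60 h, against 7.44% and 11.9% (1 and 5 by floor, against 3.83% and 14.3%). Over all libraries 1 was higher and 6 lower at 60 h than at 0 h, against 22.8% and 23.4% (1 and 8 by floor, against 11.9% and 27.2%). Also over all libraries, 1 was higher and 7 lower in CBP than in WT, against 5.99% and 10.4% (0 and 8 by floor, against 4.42% and 9.25%). The median log2 difference of the 16 was -0.23 in WT and -0.06 in CBP between times, -0.27 between CBP and WT at 0 h and -0.27 at 60 h, where the median of all tested regions was between -0.02 and 0.01. Scaling by floor moved that median to -0.16 for CBP between times, 0.08 for CBP against WT at 0 h and -0.09 for CBP against WT at 60 h. The comparisons share libraries and are not independent of each other.

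These counts rest on 2 libraries a side. Shares of all tested regions in the same setting are in parentheses. The 5 lower regions in WT became 3 without WT 60 h replicate 2 (8.3%), 1 without WT 0 h replicate 1 (4.28%) and 3 without WT 0 h replicate 2 (4.42%). With CBP 60 h replicate 1 or replicate 2 left out, 1 region was higher in WT (14.7% in each case). The 5 lower regions in CBP became 3 without CBP 60 h replicate 2 (16.4%) or CBP 0 h replicate 1 (11.9%) and 1 without CBP 0 h replicate 2 (11.2%). At 0 h the 2 regions lower in CBP became 1 without CBP 0 h replicate 1 (0.314%) or WT 0 h replicate 2 (0.273%). They became 0 without CBP 0 h replicate 2 (0.167%) or WT 0 h replicate 1 (0.123%). At 60 h the region higher in CBP was lost without CBP 60 h replicate 1 (5.07%), and without WT 60 h replicate 2 there were 2 higher and 2 lower (6.46% and 10%). Over all libraries a second region was higher at 60 h without CBP 60 h replicate 2 (21.5%) or WT 60 h replicate 1 (22%). The 7 lower in CBP became 4 without WT 0 h replicate 1 (5.99%) and 3 without any other 0 h library (6.37% to 7.4%). The 1 higher in CBP became 0 without any library but CBP 60 h replicate 2 and WT 60 h replicate 1 (2.67% to 6.52%). The authors' fold, which divides pileup by local background, gave 2 lower regions in WT between times, 1 higher and 2 lower in CBP between times, and 0 calls between CBP and WT. Calls were fewer over all tested regions too, with 4.76% lower in WT between times, 4.99% higher and 4045 of 36600 lower in CBP, none at 0 h between CBP and WT, and 0.88% higher and 2.25% lower at 60 h.

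**Figure D4:**
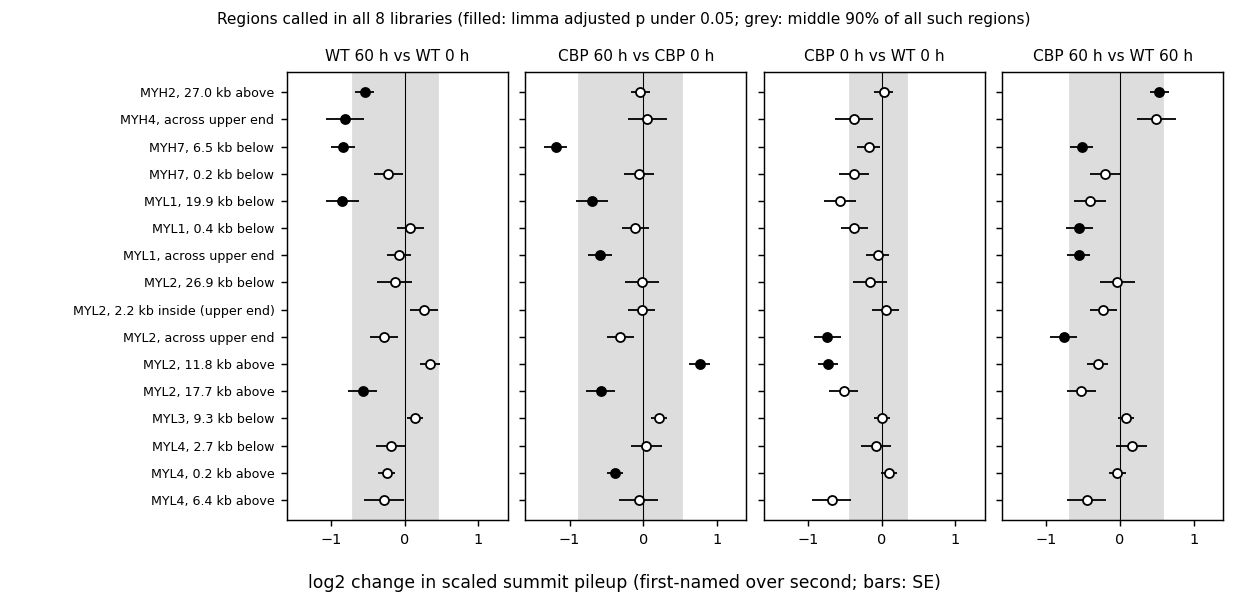
Log2 change in scaled summit pileup (points, with SE bars) of the 16 regions called in all libraries, for 4 comparisons; filled points have a limma adjusted p under 0.05, and grey bands hold the middle 90% of all such regions. The region 6496 bp below MYH7 lies left of the band in both comparisons of times, and the MYL2 region 11773 bp above lies right of it in CBP.

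MYH7, the slow heavy chain, had the lowest log2 change of the 16 in CBP between times, at the region 6496 bp below the gene (chromosome 7, 75643043 to 75644345). Its scaled pileup was 26.9 and 26.2 reads in CBP 60 h, 37.1 and 39.2 in WT 60 h, 59.1 and 61.9 in CBP 0 h, and 62.5 and 74.8 in WT 0 h. All libraries at 60 h lay below all libraries at 0 h, and CBP 60 h lay below WT 60 h. Between times it fell by 1.19 ± 0.16 on the log2 scale in CBP (SE, limma adjusted p = 1.04e-06) and by 0.84 ± 0.16 in WT (adjusted p = 0.00039), and both calls held whichever library was left out. With the authors' fold the WT change was -0.33 and no longer passed. At 60 h it was lower in CBP than in WT by a log2 difference of -0.52 ± 0.16 (adjusted p = 0.0185), which was lost without WT 60 h replicate 2 (-0.48) and with the authors' fold (-0.24). Over all libraries CBP against WT gave -0.35 (adjusted p = 0.0298), a call that held only without CBP 60 h replicate 1, CBP 60 h replicate 2 or WT 60 h replicate 1, ranged from -0.41 to -0.29 without 1 library, and was 0.013 with the authors' fold. The local background over the library floor at this region was 1.85 and 1.93 in CBP 60 h, 2.60 and 2.40 in WT 60 h, 3.01 and 2.79 in CBP 0 h, and 4.15 and 3.62 in WT 0 h, the same order of groups as the pileup.

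The other MYH7 region called in every library, 200 bp below the gene (75649325 to 75650641), passed in no comparison. Its scaled pileup was 28.2 and 24.9 reads in CBP 60 h, 33.4 and 28.0 in WT 60 h, 27.1 and 27.8 in CBP 0 h, and 35.6 and 35.6 in WT 0 h. The log2 change between times was -0.05 ± 0.20 in CBP and -0.22 ± 0.20 in WT (adjusted p = 0.861 and 0.447). Inside the gene, the region 3986 bp above the lower end (75654827 to 75655908) was uncalled in WT 60 h replicate 1 and had 28 and 20 reads in CBP 60 h, 13 in WT 60 h replicate 2, 70 and 53 in CBP 0 h, and 49 and 56 in WT 0 h, before any scaling for depth.

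At the fast heavy chains, the MYH2 region 27024 bp above the gene (chromosome 12, 55305844 to 55307165) had scaled pileups of 71.7 and 61.5 reads in CBP 60 h, 46.9 and 44.8 in WT 60 h, 64.7 and 71.8 in CBP 0 h, and 68.9 and 65.0 in WT 0 h. The WT 60 h libraries were the lowest and the other 3 groups overlapped. In WT it fell at 60 h by 0.54 ± 0.13 (log2, limma adjusted p = 0.00322), a call lost without WT 0 h replicate 1 (-0.50). At 60 h it was higher in CBP by 0.53 ± 0.13 (adjusted p = 0.0037), a call lost without CBP 60 h replicate 1 (0.42). In CBP the change between times was -0.04 ± 0.13 (adjusted p = 0.851). The test of the difference between the CBP and WT changes gave 0.51 ± 0.19 (limma adjusted p = 0.135) and did not pass. With the authors' fold the values were -0.25 for WT between times and 0.04 for CBP against WT at 60 h, neither past the threshold. The local background was 2.11 and 2.26 times the floor in CBP 60 h, 1.36 and 1.69 in WT 60 h, 2.22 and 2.32 in CBP 0 h, and 2.05 and 2.18 in WT 0 h, again lowest in WT 60 h.

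The region across the upper end of MYH4 (55216129 to 55217389) had scaled pileups of 20.5 and 19.6 reads in CBP 60 h, 11.12 and 18.2 in WT 60 h, 22.945 and 16.2 in CBP 0 h, and 22.953 and 27.3 in WT 0 h. WT 60 h lay below WT 0 h, and the CBP groups overlapped. The WT change was -0.81 ± 0.26 (limma adjusted p = 0.0206), and the call was lost without WT 60 h replicate 1 (-0.46), WT 0 h replicate 1 (-0.94) or WT 0 h replicate 2 (-0.69). In CBP the change was 0.06 ± 0.26. The test of the difference between these changes gave 0.87 ± 0.37 (adjusted p = 0.207) and did not pass.

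**Figure D5:**
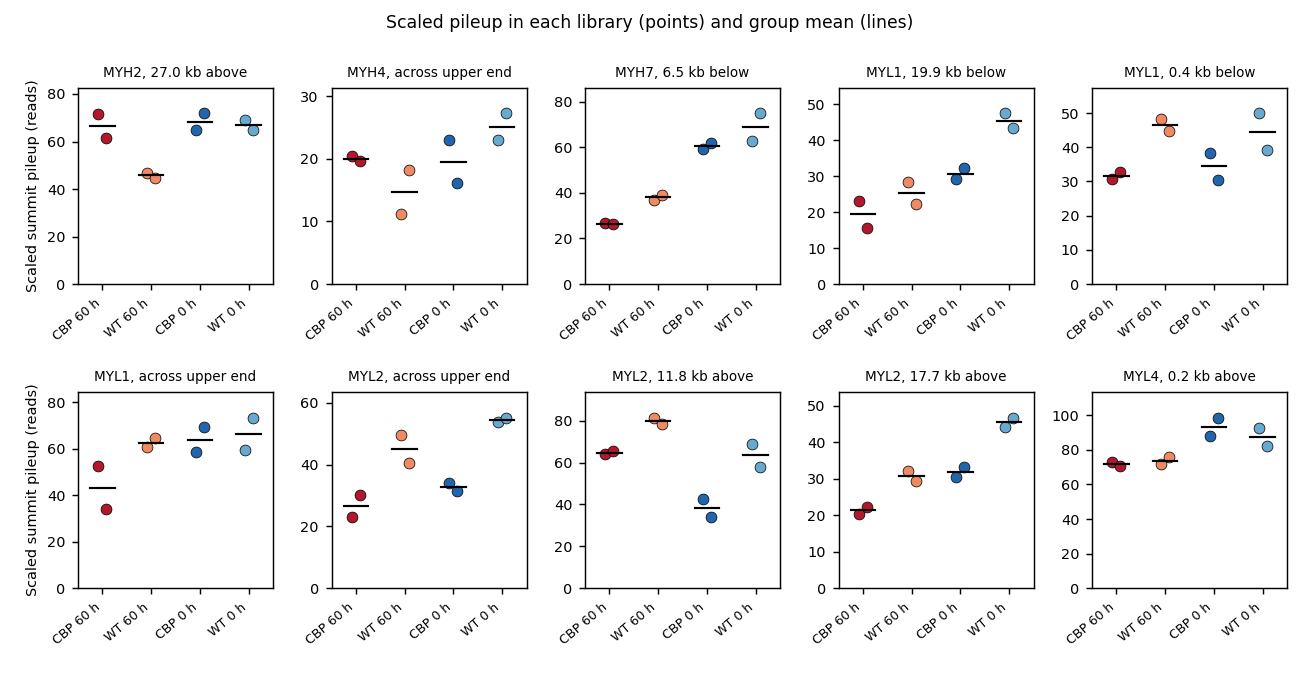
Scaled summit pileup (reads, linear axes from 0) in each library (points) and the mean of each group of 2 (lines) for the 10 regions with a limma call in at least 1 of the 4 comparisons between groups. The region 6496 bp below MYH7 is lower in all 60 h libraries, and at the MYL2 upper end every CBP library lies below every WT library.

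Among the essential light chains, MYL1 had calls at all 3 of its regions. The region 19946 bp below the gene (chromosome 15, 113016897 to 113018137) had 23.04 and 15.7 reads in CBP 60 h, 28.4 and 22.4 in WT 60 h, 29.2 and 32.3 in CBP 0 h, and 47.5 and 43.3 in WT 0 h. Within each label, 60 h lay below 0 h. Over all libraries it fell at 60 h by 0.77 ± 0.15 (log2, limma adjusted p = 0.000142), also with any 1 library left out (-0.91 to -0.63) and with the authors' fold (-0.70). Within CBP the change was -0.69 ± 0.22 (adjusted p = 0.0135), lost without CBP 60 h replicate 2 (-0.42), CBP 0 h replicate 1 (-0.76) or CBP 0 h replicate 2 (-0.62). Within WT it was -0.85 ± 0.22 (adjusted p = 0.00527), lost without WT 60 h replicate 2 (-0.68) or WT 0 h replicate 1 (-0.78). CBP against WT over all libraries gave -0.48 (adjusted p = 0.0277), a call that held only without CBP 60 h replicate 1 or WT 60 h replicate 2, with values from -0.62 to -0.35 without 1 library, and it was lost with the authors' fold (-0.30).

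The region 359 bp below the lower end of MYL1 (113036336 to 113037724) had 30.7 and 32.7 reads in CBP 60 h, 48.2 and 44.8 in WT 60 h, 38.2 and 30.5 in CBP 0 h, and 49.9 and 39.1 in WT 0 h. Every CBP library lay below every WT library. This was so for 2 of the 16 regions, and the reverse for 0. The share of all tested regions with such a split was not computed, so the count cannot be read as a trait of the members. CBP against WT gave a log2 difference of -0.46 ± 0.13 over all libraries (limma adjusted p = 0.0119), lost without CBP 0 h replicate 2 (-0.38) or WT 0 h replicate 1 (-0.37). At 60 h it was -0.55 ± 0.18 (adjusted p = 0.0306), lost without CBP 60 h replicate 1 (-0.51), WT 60 h replicate 1 (-0.50) or WT 60 h replicate 2 (-0.60). The local background showed the same split, at 1.44 and 1.66 times the floor in CBP 60 h, 2.52 and 2.57 in WT 60 h, 1.55 and 1.502 in CBP 0 h, and 2.59 and 2.33 in WT 0 h. Relative to it, by the authors' fold, CBP against WT was 0.13 over all libraries, of opposite sign and without a call, and -0.02 at 60 h.

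The region across the upper end of MYL1 (113049681 to 113051603) had 52.5 and 34.0 reads in CBP 60 h, 60.5 and 64.4 in WT 60 h, 58.4 and 69.1 in CBP 0 h, and 59.4 and 73.4 in WT 0 h. Only the CBP 60 h libraries stood below the others, and their 2 values differed by more than those of any other group. Between times it fell in CBP by 0.59 ± 0.16 (log2, limma adjusted p = 0.00433), lost without CBP 60 h replicate 2 (-0.28) or CBP 0 h replicate 2 (-0.46). CBP against WT at 60 h gave -0.56 ± 0.16 (adjusted p = 0.0108), lost without CBP 60 h replicate 2 (-0.26) or WT 60 h replicate 2 (-0.52). The difference between the CBP and WT changes was -0.51 ± 0.23 and did not pass (limma adjusted p = 0.236). In WT the change was -0.08 ± 0.16. With the authors' fold the CBP change was -0.20 and CBP against WT at 60 h was -0.10, neither past the threshold. The local background was likewise lowest in CBP 60 h, at 1.78 and 1.66 times the floor, against 2.41 and 2.96 in WT 60 h, 2.69 and 2.87 in CBP 0 h, and 2.87 and 2.93 in WT 0 h.

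MYL3 had the highest scaled pileup of the 16 in all 4 libraries at 60 h, and MYL4 in all 4 at 0 h. The MYL4 region 213 bp above the gene (chromosome 12, 16792426 to 16793863) had scaled pileups of 72.9 and 70.7 reads in CBP 60 h, 71.6 and 75.6 in WT 60 h, 88.3 and 98.7 in CBP 0 h, and 92.6 and 82.5 in WT 0 h. All 60 h libraries lay below all 0 h libraries, by less than at MYH7. Over all libraries it fell at 60 h by 0.31 ± 0.08 (log2, limma adjusted p = 0.00138), a call kept with any 1 library left out and with the authors' fold (-0.25). In CBP alone it fell by 0.38 ± 0.11 (adjusted p = 0.00751), lost without CBP 0 h replicate 2 (-0.30) and with the authors' fold (-0.32). The MYL4 region 6429 bp above the gene (16798642 to 16799320) had 26.9 and 14.4 reads in CBP 60 h, 37.1 and 19.6 in WT 60 h, 18.8 and 22.4 in CBP 0 h, and 30.9 and 34.9 in WT 0 h. Its CBP against WT difference over all libraries, -0.57 ± 0.19 (adjusted p = 0.0361), held only without CBP 60 h replicate 1 or WT 60 h replicate 2, was between -0.80 and -0.34 without 1 library, and was -0.27 with the authors' fold, without a call. The MYL3 region 9291 bp below the gene (chromosome 13, 29719153 to 29720980) passed in no comparison, with 99.8 and 90.3 reads in CBP 60 h, 84.0 and 95.2 in WT 60 h, 79.96 and 83.5 in CBP 0 h, and 85.5 and 77.6 in WT 0 h.

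At MYL2, the slow regulatory light chain, neighbouring regions differed in opposite directions between times. The region 11773 bp above the gene (chromosome 14, 32225621 to 32227247) had 64.0 and 65.4 reads in CBP 60 h, 81.5 and 78.4 in WT 60 h, 42.4 and 34.1 in CBP 0 h, and 68.9 and 58.0 in WT 0 h. In each label 60 h lay above 0 h, and at each time CBP lay below WT. In CBP it rose at 60 h by 0.77 ± 0.14 (log2, limma adjusted p = 7.22e-05), also with any 1 library left out and with the authors' fold (0.41), and it was the one member higher at 60 h over all libraries (0.55, adjusted p = 2.87e-05). In WT the change was 0.34 ± 0.14 (adjusted p = 0.0681), and the difference between the 2 changes was 0.43 ± 0.20 (limma adjusted p = 0.257), neither past the threshold. The region 17729 bp above the gene (32231577 to 32232710) had 20.5 and 22.2 reads in CBP 60 h, 32.1 and 29.4 in WT 60 h, 30.6 and 33.2 in CBP 0 h, and 44.3 and 46.8 in WT 0 h. It fell at 60 h over all libraries by 0.57 ± 0.14 (adjusted p = 0.00109), also with any 1 library left out and with the authors' fold (-0.38). Within CBP the change was -0.58 ± 0.20 (adjusted p = 0.0209), lost without CBP 60 h replicate 1 (-0.52), CBP 0 h replicate 1 (-0.64) or CBP 0 h replicate 2 (-0.52), and with the authors' fold (-0.40). Within WT it was -0.57 ± 0.20 (adjusted p = 0.0323), lost without WT 60 h replicate 2 (-0.51), WT 0 h replicate 1 (-0.61) or WT 0 h replicate 2 (-0.53), and also with scaling by floor (-0.56) or with the authors' fold (-0.36).

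Between CBP and WT, MYL2 was lower at 3 of its 5 regions over all libraries. The region across its upper end (32213439 to 32215073) had 23.04 and 30.1 reads in CBP 60 h, 49.4 and 40.6 in WT 60 h, 34.1 and 31.4 in CBP 0 h, and 53.8 and 55.2 in WT 0 h. Every CBP library lay below every WT library. The log2 difference was -0.77 ± 0.18 at 60 h (limma adjusted p = 0.00296), -0.74 ± 0.18 at 0 h (adjusted p = 0.0337) and -0.75 ± 0.13 over all libraries (adjusted p = 0.000119). The calls at 60 h and over all libraries held with any 1 library left out, whereas the call at 0 h was lost when any of the 4 libraries at 0 h was left out (-0.79 to -0.68) and with scaling by floor (-0.67). The region 11773 bp above was lower in CBP at 0 h by a log2 difference of -0.73 ± 0.14 (adjusted p = 0.00304), lost without CBP 0 h replicate 2 (-0.58) or WT 0 h replicate 1 (-0.61), and over all libraries by -0.52 (adjusted p = 0.000307), held with any 1 library left out. The region 17729 bp above gave -0.52 over all libraries (adjusted p = 0.00837), lost without CBP 0 h replicate 1 (-0.49) or WT 0 h replicate 2 (-0.50).

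With the authors' fold, the 3 differences at MYL2 over all libraries became -0.27 at the upper end, -0.14 at 11773 bp above and -0.06 at 17729 bp above, none past the threshold. The calls at the upper end became -0.22 at 60 h and -0.31 at 0 h, and the one at 11773 bp above became -0.20 at 0 h, all without a call. The local background was itself lower in every CBP library than in every WT library at the regions 11773 and 17729 bp above and at the region 2198 bp inside the gene. The share of all tested regions with such a background split was not computed, so it cannot be read as a trait of the members. Pileup and background were recovered from the same peak values and are not independent measures. At 17729 bp above, the local background was 1.33 and 1.62 times the floor in CBP 60 h, 2.32 and 2.20 in WT 60 h, 2.06 and 1.99 in CBP 0 h, and 2.55 and 3.04 in WT 0 h. At the upper end it was 2.82 and 3.51 in CBP 60 h, 6.46 and 4.03 in WT 60 h, 4.26 and 3.96 in CBP 0 h, and 5.45 and 5.16 in WT 0 h, where CBP 0 h replicate 1 lay above WT 60 h replicate 2. The region 2198 bp inside the gene (32210978 to 32211650) had pileups of 34.6 and 44.5 reads in CBP 60 h, 55.6 and 37.8 in WT 60 h, 41.0 and 38.6 in CBP 0 h, and 40.4 and 36.3 in WT 0 h, and passed in no comparison.

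The change between times was compared between CBP and WT in 1 term of the same limma fit. No member passed, 0 higher and 0 lower, against 0.866% and 2.54% of all tested regions (0.44% and 5.09% by floor), with a smallest adjusted p = 0.135 at MYH2. At an unadjusted p under 0.05, 3 members were higher (MYH2, MYH4 and MYL2 11773 bp above) and 1 lower (MYL1 upper end), against 6.53% and 9.84% of all tested regions. Without CBP 60 h replicate 1, 1 member was lower after adjustment, against 3.02% of all tested regions.

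Genes that work with these chains were counted in the same way, against the shares of all linked regions given above. Thick filament and myosin partner genes had 161 regions at 18 of 19 genes. Between times 2 opened and 33 closed in CBP (1.24% and 20.5%, against 1.36% and 14.5% of all linked regions), and 2 opened and 26 closed in WT (1.24% and 16.1%, against 0.575% and 14.3%). At equal peak numbers these were 2 and 12 in CBP and 4 and 9 in WT. The M-band protein gene MYOM1 had 1 of 23 regions opened and 3 closed in CBP, and 0 opened and 5 closed in WT, with 3 closed in CBP and 1 in WT at equal peak numbers. MYOM2, also of the M-band, had 5 of 19 closed in CBP and 4 in WT, and at equal peak numbers 1 opened and 1 closed in CBP and 0 of either in WT. MYLK4, a myosin light chain kinase, had 4 of 18 closed at each label, and 2 in CBP and 3 in WT at equal peak numbers. Between CBP and WT at 60 h, 2 partner regions opened and 10 closed (1.24% and 6.21%, against 3.14% and 3.17%), or 0 and 10 at equal peak numbers, 3 of the closed at the myosin-binding protein MYBPC1. At 0 h 5 opened and 7 closed (3.11% and 4.35%, against 2.23% and 3.35%), or 3 and 3 at equal peak numbers. 

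Other myosin II chains, among them those of smooth muscle and nonmuscle cells, had 120 regions at 12 of 16 genes. Between times 5 opened and 19 closed in CBP (4.17% and 15.8%), and 4 and 14 in WT (3.33% and 11.7%), whereas equal peak numbers gave 6 and 6 in CBP and 11 and 6 in WT. As deposited, the closed shares lay near those of all linked regions (14.5% in CBP and 14.3% in WT). The opened shares lay above the 1.36% and 0.575% of all linked regions. At equal peak numbers all linked regions had 3.64% opened and 5.57% closed in CBP, and 2.62% and 3.89% in WT. Between CBP and WT there were 1 opened and 7 closed at 60 h (0.833% and 5.83%), the same counts at equal peak numbers, and 2 and 8 at 0 h (1.67% and 6.67%), or 3 and 3. MYH9, a nonmuscle heavy chain, had 2 opened and 7 closed of 34 in CBP between times, but 4 opened and 1 closed at equal peak numbers, and 0 opened and 3 closed in CBP against WT at 60 h in both settings. Thin filament genes had 103 regions at 18 genes. Between times 3 opened and 10 closed in CBP (2.91% and 9.71%), and 1 and 11 in WT (0.971% and 10.7%), and the balance turned at equal peak numbers, with 9 and 5 in CBP and 6 and 1 in WT. Between CBP and WT 4 opened and 3 closed at 60 h (3.88% and 2.91%), or 3 and 5 at equal peak numbers, and 4 and 5 at 0 h (3.88% and 4.85%), or 3 and 3. ACTC1, the cardiac actin also made in embryonic muscle, had 2 of 10 opened in CBP between times, also at equal peak numbers. As far from balance the other way, TNNT1 had 2 of 6 closed and TPM1 2 of 22 in CBP, with 0 opened. At equal peak numbers TNNT1 had 1 opened and 1 closed, and TPM1 2 and 2.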

How the data were processed

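The authors deposited 1 peak list per library, called separately with MACS2 2.1.0 on Sscrofa11.1 after trimming with Trimmomatic, per the submitters' processing notes. The sources used here do not name the aligner or the handling of duplicate and mitochondrial reads. The authors' values for a peak are its score, its fold or ratio of pileup to local background, and its p-value and q-value on the −log10 scale, as deposited. From their fold and p the summit pileup and local background were recovered, with whole-number pileups at 100% of peaks (tolerance 0.01 in −log10 p). The most frequent background of a library, its floor, measured relative depth, 1.94 to 4.04 reads. Uncalled regions carry no value. Where several peaks of a library overlapped a region, the highest pileup, fold and −log10 q were each taken over those peaks. The local background came from the peak with the highest pileup, so these values can stem from different peaks.

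Regions on chromosomes 1 to 18 and X were merged and linked with Python 3.11.15, and 64.4% were linked to 17522 genes. The planned exact permutation test used 70 arrangements. Pileups were tested with limma 3.58.1 in R 4.3.3, a test chosen after seeing the data and tested on simulated data. The members and gene lists were chosen with earlier results of these data known. Named regions are those opened or closed in a comparison or called in all 8 libraries, and a further region inside MYH7. Other genes are those with the highest net number in their list. Alternatives were a −log10 q of at least 5, equal peak numbers, 50% coverage, links within 10 kb, left-out libraries, blocks, the authors' fold and floor scaling. No genome sequence was used here, so no sequence is shown and no motif was searched.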

Additional observations from a re-analysis of the deposited data

Results flagged for a closer look

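At the region across the upper end of MYH4, the fast IIb heavy chain (chromosome 12, 55216129 to 55217389), the scaled pileup averaged 20.1 ± 0.598 reads in CBP and 14.7 ± 5.01 in WT at 60 h, and 19.6 ± 4.80 in CBP and 25.1 ± 3.04 in WT at 0 h (SD, n = 2 each). Both CBP libraries lay above both WT libraries at 60 h and both lay below at 0 h, there with 22.945 reads in CBP replicate 1 and 22.953 in WT replicate 1. The log2 difference between CBP and WT in the change from 0 h to 60 h was 0.8726, which did not pass (limma adjusted p = 0.207). In WT 60 h replicate 1 this region was not among the strongest 82696 peaks.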

How the results depend on the processing

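Of 33 pileup calls at the members, 11 held under every left-out library, 33 with the replicate block, 30 with floor scaling and 10 with the authors' fold. With that fold 2 calls between CBP and WT over all libraries turned sign, to 0.013 at MYH7 (75643043) and 0.13 at MYL1 (113036336), and the cause was not tested. The 60 h libraries had lower relative depth, whose part in their lower number of calls was not tested, and 29 regions have no pileup in some library.

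Opened and closed counts moved as follows, with the share of all linked regions in the same setting in parentheses. A −log10 q of at least 5 gave 1 opened in WT (0.328%) and 1 in CBP (0.808%) between times, 0 opened and 3 closed in CBP against WT at 0 h (1.80% and 2.88%), 1 and 4 at 60 h (2.34% and 2.67%), and 4 closed over all times (6.49%). Equal peak numbers gave 4 opened and 1 closed in WT (2.62% and 3.89%), 2 closed in CBP (5.57%), 1 and 1 in CBP against WT at 0 h (1.85% and 2.35%), 0 opened at 60 h (2.77%), and 0 closed over all times (1.27%). Coverage of 50% gave 8 closed in WT (19.2%), 2 opened in CBP (1.47%), 2 closed in CBP against WT at 0 h (4.30%), 4 closed at 60 h (3.29%), and 1 closed over all times (7.69%). Links within 10 kb left 30 members, of which 3 closed in WT (12.7%), 1 opened and 4 closed in CBP (0.984% and 12.9%), 1 opened in CBP against WT at 60 h (2.38%), and 0 closed over all times (4.74%).

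The authors' fold gave 2 lower in WT and 2 lower in CBP between times, 0 lower in CBP against WT at 0 h, 0 higher and 0 lower at 60 h, 2 higher at 60 h over all libraries (15.6% of tested regions), and 0 higher and 0 lower in CBP over all libraries (0.41% and 0.842%). Floor scaling gave 1 lower in CBP at 0 h (0.669%) and 0 higher in CBP over all libraries (4.42%).

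The ranges without 1 library in turn follow, with shares of all linked regions (calls) or all tested regions (pileups) in parentheses. Between times, opened counts were 0 to 1 in WT (0.884% to 2.25%) and 4 to 7 in CBP (1.66% to 4.11%). Between CBP and WT they were 2 to 4 at 0 h (3.85% to 8.79%) and 3 to 5 at 60 h (4.69% to 7.98%). Over all libraries they were 0 to 0 for time (0.117% to 0.177%) and 0 to 0 for CBP against WT (0.164% to 0.324%). Closed counts were 6 to 7 in WT (18.1% to 23.9%) and 7 to 10 in CBP (18.7% to 25.7%). Between CBP and WT they were 5 to 8 at 0 h (4.57% to 8.97%) and 2 to 5 at 60 h (4.92% to 7.39%). Over all libraries they were 2 to 3 for time (6.10% to 7.37%) and 0 to 1 for CBP against WT (0.283% to 0.513%). Higher pileups were found at 0 to 1 member in WT (5.18% to 14.7%) and 1 to 1 in CBP (8.84% to 18.6%). Between CBP and WT there were 0 to 0 at 0 h (0% to 0.257%) and 0 to 2 at 60 h (5.07% to 6.46%). Over all libraries there were 1 to 2 for time (18.7% to 22%) and 0 to 1 for CBP against WT (2.67% to 6.52%). The difference of changes gave 0 to 0 higher (0.0683% to 1.16%). Lower pileups were found at 1 to 5 in WT (4.28% to 13.8%) and 1 to 5 in CBP (11.2% to 20%). Between CBP and WT there were 0 to 2 at 0 h (0.123% to 1.69%) and 2 to 4 at 60 h (8.78% to 10.8%). Over all libraries there were 4 to 7 for time (18.6% to 23.5%) and 3 to 8 for CBP against WT (5.99% to 10.9%). The difference of changes gave 0 to 1 lower (0.213% to 3.21%).

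The gene test by number of called regions called 0 members in every setting. Its replicate block and its label block, each with 36 arrangements, cannot go below an exact permutation p = 0.0556 and so cannot pass. In the other settings the smallest possible p is 0.0286, with the limit given above. Deviations of same-numbered libraries from their group means correlated at −0.055 to 0.062 over pairs of groups, so the numbers were not taken as a pairing, and the replicate block moved no count of pileup calls at the members by over 1.5 times. The percentile of −log10 q was not run as an alternative.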
